A study of Mus musculus with 3 samples.

Results

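Granulosa cells are the somatic cells that surround the oocyte in the ovarian follicle. In all, 10 genes known for their activity in these cells, Fshr, Lhcgr, Foxl2, Amh, Inha, Inhba, Cyp19a1, Npr2, Nppc and Kitl, were followed in H3K36me3 profiles of mouse germinal vesicle (GV) oocytes, the fully-grown oocytes whose nucleus is still intact. They were read over all the windows that overlapped the bodies of these 10 genes by GENCODE release M21 on GRCm38, which gave 267 of the 1186323 valid windows of 2 kb. The 3 libraries formed a single group of wildtype C57BL6/Babr oocytes from 25-day-old mice. Each library came from a pool of about 280 oocytes and was profiled with a native ChIP-seq protocol for very small inputs, in which chromatin is cut with micrococcal nuclease and precipitated without fixation. The methods of the study refer to an earlier publication for these pools and do not themselves describe how somatic cells were removed from them. For the oocytes of its single-cell libraries they state that cumulus cells were removed. No library of granulosa cells was used here, so reads from oocytes and reads from attached somatic cells cannot be told apart. Nothing in the labels ties the pools to separate sets of animals, so the p-values measure the spread between these samples, which may be technical.

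H3K36me3, trimethylation of lysine 36 of histone H3, is laid down over the bodies of transcribed genes during elongation by RNA polymerase II. H3K27me3 is deposited by the Polycomb repressive complex over silent developmental genes. The study describes it as usually spread over wide regions that lack DNA methylation. H3K4me3 marks promoters and, in oocytes, also forms broad domains outside of them. In the follicle, granulosa cells answer the gonadotropins through FSHR and LHCGR, make oestradiol with aromatase (Cyp19a1), secrete inhibin, activin and anti-Müllerian hormone, hold the oocyte in meiotic arrest with the Nppc and Npr2 pair, and signal to it with KIT ligand (Kitl). Foxl2 encodes the forkhead factor that maintains their identity.

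Reads in valid windows numbered 7888140, 2692510 and 3166564 in replicates 1 to 3. The value of a single read was 0.136, 0.396 and 0.338 RPKM, respectively, so short genes rested on few reads in the last 2. RPKM is the name that the deposited table gives, and the unit is in doubt. From the value of a read, the reads in windows came to 1.07 times the implied library total if the values are CPM, and to between 2.13 and 2.14 times if they are RPKM of 2 kb windows. Levels and the threshold of 1 are therefore printed as RPKM by name only. Replicate 2 was prepared with less antibody than the other libraries. The mean over windows that overlap no annotated gene was 0.562 ± 0.0239 RPKM (SD, n = 3), and this intergenic level served as the reference. As given further on, 14 of 15 oocyte genes were called above this level, and so were 54.8% of all protein-coding genes and 8 of 10 ubiquitous genes. The count alone therefore does not tell which cells the pools held.

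The 10 genes spanned levels from 0.342 to 1.46 RPKM per window, a scale on which genes of different length can be compared. Their median was 0.579, against 1.11 for all 21062 protein-coding genes with a valid window. Kitl was highest at 1.46 ± 0.110 (SD, n = 3), followed by Amh, Inhba and Cyp19a1, and Fshr and Lhcgr were lowest at 0.353 ± 0.0309 and 0.342 ± 0.0948. In that order, every pair of neighbours overlapped in its replicate values except Inhba and Cyp19a1, where Inhba was higher in all 3 replicates. Even Kitl stood only at percentile 59.4 of protein-coding genes.

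**Figure D1:**
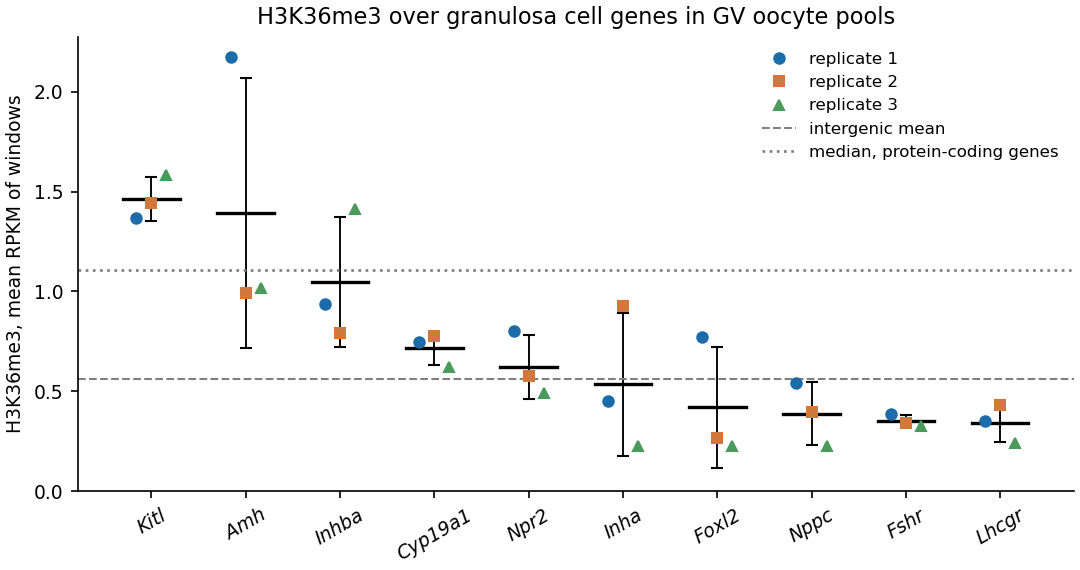
Mean RPKM of H3K36me3 over the windows of each gene (vertical axis), with 1 symbol per replicate, the mean as a bar and the SD as whiskers (n = 3). The dashed line is the intergenic mean of 0.562 and the dotted line the median of protein-coding genes, 1.11; all 3 replicates of Kitl lie above both lines and all 3 of Fshr and Lhcgr below both.

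Gene levels were set against the intergenic level with limma on log2(RPKM + 0.1), with Benjamini-Hochberg adjustment over all 21062 genes. Kitl, Amh, Inhba and Cyp19a1 were called above the intergenic level, Fshr and Lhcgr below, and Npr2, Inha, Nppc and Foxl2 were not called. The intergenic mean was not cleared of windows above 1 RPKM, so a call below it need not mean a level under that of unmarked windows. Windows of protein-coding genes called for H3K27me3 alone averaged 0.413, 0.356 and 0.269 RPKM in replicates 1 to 3. Those called for no mark averaged 0.531, 0.366 and 0.387. Of all protein-coding genes, 54.8% were called above and 18.1% below, so 4 of 10 above is under the background share and 2 of 10 below is near it. The count above fell to 2 without replicate 1 and to 2 without replicate 3, and the count below fell to 1 in each case. Of the 267 windows, 54 were enriched for H3K36me3, meaning a mean above 1 RPKM as in the methods of the study, which is 20.2% against 51.2% of all windows of protein-coding genes. Kitl alone held 27 of them and Cyp19a1 held 12.

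Kitl (ENSMUSG00000019966.18, chr10:100015630-100100416, plus strand) encodes the ligand that granulosa cells present to the KIT receptor of the oocyte. Its 44 windows averaged 1.37, 1.44 and 1.58 RPKM in replicates 1 to 3, from 443, 160 and 206 reads. The 3 libraries were close together and all well above the intergenic level, with a log2 ratio of 1.24 (SE 0.09, limma adjusted p = 1.09e-06). The call held under all 11 alternatives tried. The enriched windows were not spread evenly. The first 14 windows, from before the gene start to chr10:100042000, held none and averaged 0.381 ± 0.185 RPKM. From 26.4 kb behind the gene start, inside intron 1 of each of the 4 protein-coding transcripts, 27 of 29 windows were enriched, 18 of them above 1 in each replicate. That stretch averaged 1.83, 2.10 and 2.16 RPKM in replicates 1 to 3 and ran to chr10:100100000, within 0.416 kb of the annotated gene end.

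Within 20 kb of the ends of Kitl the signal was low again, at 0.394, 0.416 and 0.169 RPKM in replicates 1 to 3. Further past the gene end, windows centred 113 to 123 kb behind the gene start were enriched, at 1.12 to 2.67 RPKM. The log2 ratio of body over the flanks of 20 kb was 1.93 ± 0.62 (SD, n = 3), positive in all replicates. The exact two-sided sign-flip permutation test gave p = 0.25, the smallest value that 3 replicates allow. The part of the gene after its midpoint averaged 2.01 ± 0.164 RPKM and the part before it 0.915 ± 0.0940, a log2 ratio of 1.06 ± 0.14 (exact permutation p = 0.25). All 14 windows before the enriched stretch were called for H3K4me3, and 3 of these also for H3K27me3. Kit, named here as the receptor for this ligand and not by its level, averaged 2.29 ± 0.166 RPKM.

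**Figure D2:**
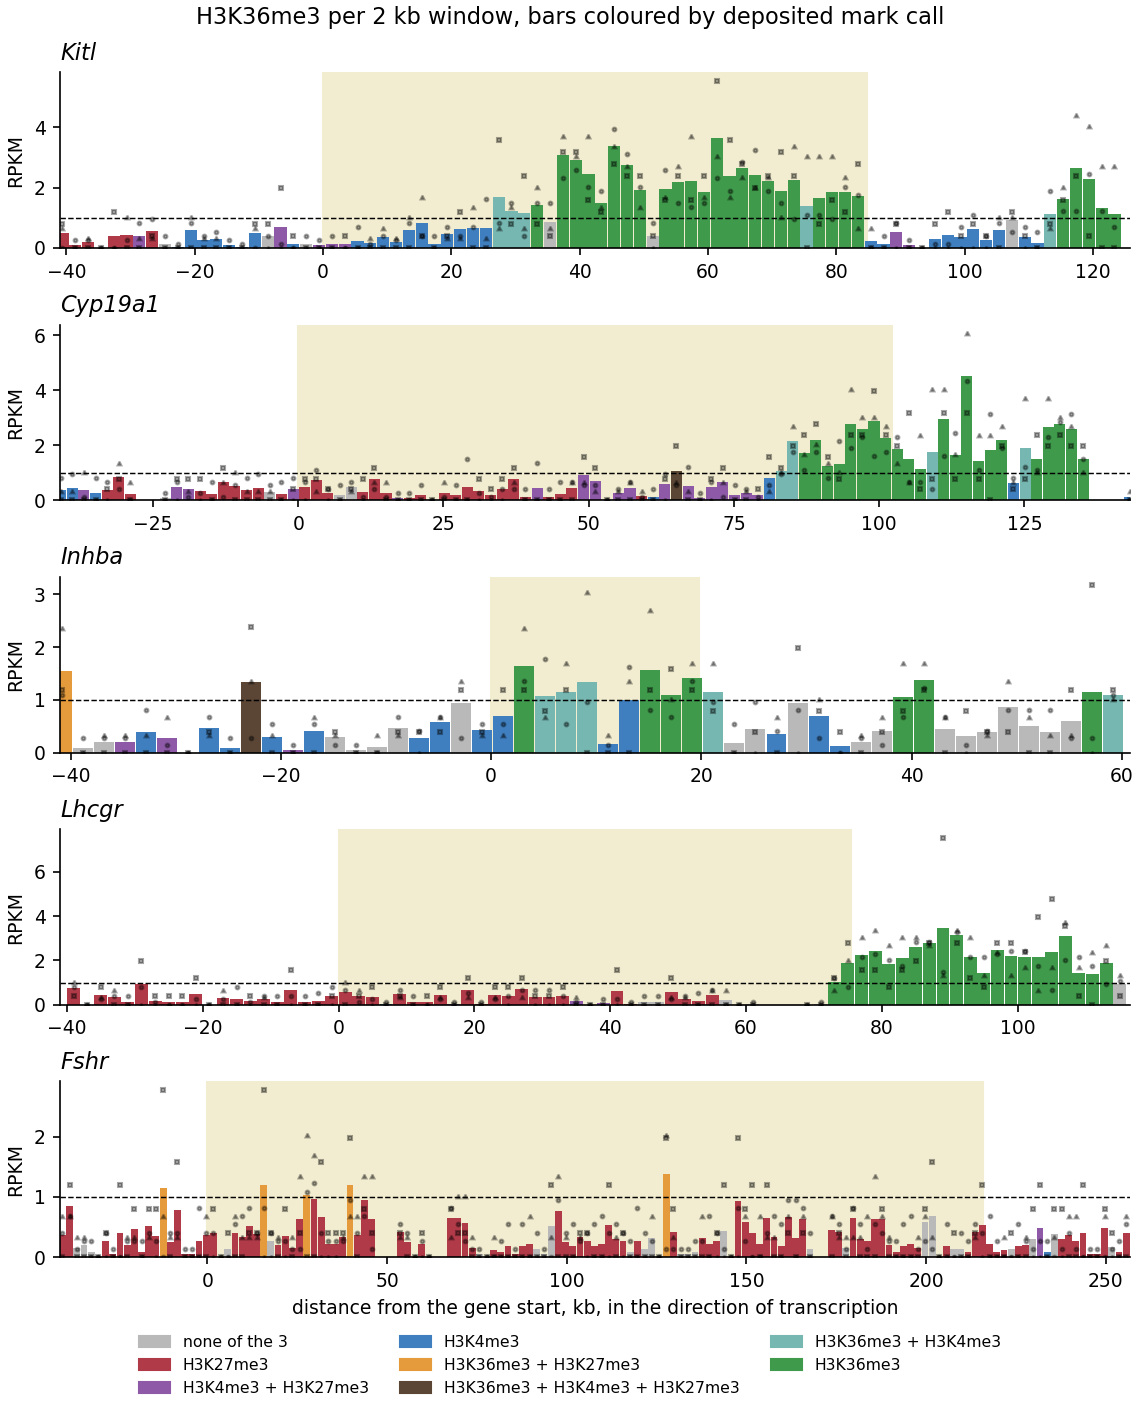
H3K36me3 RPKM of each 2 kb window (bars, mean of 3 replicates; small symbols, single replicates) against the distance from the gene start in kb, for Kitl, Cyp19a1, Inhba, Lhcgr and Fshr with 40 kb on either side. The shaded band is the gene, the dashed line the threshold of 1 RPKM and the colours the deposited calls. In Kitl the enriched windows begin 26.4 kb into the gene, and in Lhcgr they lie at its far end. In Cyp19a1 the unbroken run of them begins 82.1 kb into the gene, with 1 separate enriched window at 64.1 kb.

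Cyp19a1 (ENSMUSG00000032274.9, chr9:54165937-54268110, minus strand) encodes aromatase, which turns androgens into oestrogens. Its 53 windows averaged 0.746, 0.778 and 0.619 RPKM, a log2 ratio of 0.29 to the intergenic level (SE 0.10, limma adjusted p = 0.0202). The call was lost without replicate 1 (adjusted p = 0.0903) and without replicate 2 (adjusted p = 0.149). The ratio turned to -0.63 (adjusted p = 0.0399) when the flanks of the gene were the reference, and to -0.30 (adjusted p = 0.0245) when it was the mean of all valid windows, which lies 0.60 above the intergenic level on the log2 scale. The level of the whole gene was a mixture of an end marked by H3K36me3 and a remainder with little of it. The last 11 windows, chr9:54164001-54186000, were all enriched and averaged 1.68, 2.16 and 2.18 RPKM. The other 42 windows averaged 0.501, 0.415 and 0.209, and 1 of them was enriched. The stretch began in intron 2 of both protein-coding transcripts, 7.44 and 7.52 kb behind their starts. The outermost annotated start, 82.1 kb before the stretch, belongs to a processed transcript that ends before the stretch.

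The same run of enriched windows went on past the end of Cyp19a1 for 19.9 kb. Within 40 kb of that end no other protein-coding gene is annotated, and the only one within 40 kb of the other end lies 18.4 kb from it. The flanks averaged 1.18 ± 0.301 RPKM, above the body in all 3 replicates, with a log2 ratio of body over flanks of -0.63 ± 0.48 (exact permutation p = 0.25). Among the 42 windows before the stretch, 38 were called for H3K27me3, 16 of them together with H3K4me3 alone and 1 with both other marks. Inside the stretch 0 of 11 windows were called for H3K27me3 and 2 were called for H3K4me3.

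The 250 bases before the most proximal RefSeq start of Cyp19a1 (GRCm38.p6, chr9:54193744-54193993, minus strand) are shown because their promoter entry holds the fewest CpG among the 11 RefSeq entries that matched 9 of the 10 genes. The 250 bases before the start of Nppc (chr1:86670574-86670823, minus strand) are shown because their entry holds the most. The Cyp19a1 stretch lies upstream of both protein-coding transcripts and in intron 1 of a non-coding transcript, and the Nppc stretch lies upstream of the annotated gene. CpG dinucleotides are in capitals, 2 in Cyp19a1 and 24 in Nppc.
Cyp19a1: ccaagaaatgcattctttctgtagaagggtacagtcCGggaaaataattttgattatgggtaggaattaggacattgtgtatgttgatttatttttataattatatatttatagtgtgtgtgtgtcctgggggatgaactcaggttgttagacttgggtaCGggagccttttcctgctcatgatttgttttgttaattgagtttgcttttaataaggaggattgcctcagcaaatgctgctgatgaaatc
Nppc: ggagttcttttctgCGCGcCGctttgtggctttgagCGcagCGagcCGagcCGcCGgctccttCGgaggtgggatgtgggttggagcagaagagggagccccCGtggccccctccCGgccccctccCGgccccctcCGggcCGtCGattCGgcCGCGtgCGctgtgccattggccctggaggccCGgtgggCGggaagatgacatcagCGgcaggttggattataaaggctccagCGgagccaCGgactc
Despite this contrast in CpG, the window at either start carried the same deposited call, H3K4me3 with H3K27me3 and no H3K36me3. Its H3K36me3 level was 0.181 RPKM at Cyp19a1 and 0.0905 at Nppc.

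Fshr and Lhcgr encode the receptors for follicle-stimulating hormone and luteinizing hormone. Both are G protein-coupled receptors, FSHR serving growing follicles and LHCGR appearing in granulosa cells late in follicle growth. Fshr (ENSMUSG00000032937.5, chr17:88984952-89200675, minus strand) averaged 0.387, 0.342 and 0.328 RPKM over 102 valid windows of 109, from 478 reads in all. Its log2 ratio to the intergenic level was -0.55 (SE 0.09, limma adjusted p = 0.000468), and the call was kept with each replicate left out in turn. Its surroundings were low as well, the flanks at 0.309 ± 0.174 RPKM, and the log2 ratio of body over flanks was 0.23 ± 0.61 (exact permutation p = 0.75). Only 4 of its windows passed the threshold of 1, at 4 separate places, and 0 passed it in each replicate.

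Lhcgr (ENSMUSG00000024107.7, chr17:88716481-88791990, minus strand) averaged 0.353, 0.430 and 0.242 RPKM over 35 valid windows of 38. Its log2 ratio to the intergenic level was -0.61 (SE 0.18, limma adjusted p = 0.0121), with adjusted p = 0.0738 without replicate 1 and 0.0654 without replicate 3. The 2 enriched windows, chr17:88716001-88720000, were the last of the gene. They lie beyond the end of the protein-coding transcript at chr17:88737274 and overlap only a processed transcript of the gene. They belong to a run of 21 enriched windows, chr17:88678001-88720000, that averaged 1.99, 2.34 and 2.29 RPKM and lay mostly over Gtf2a1l, a gene for a germ cell form of a general transcription factor that converges on Lhcgr from 1.33 kb away. Gtf2a1l, which was named after its values were seen, averaged 2.32 ± 0.297 RPKM with 23 of 24 windows enriched. Against its flanks Lhcgr had a log2 ratio of -1.73 ± 0.40 (exact permutation p = 0.25).

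Inhba, Inha and Amh encode secreted factors of the TGF-beta family. Inhba (ENSMUSG00000041324.14, chr13:16011851-16031621, plus strand), the beta A subunit shared by activin A and inhibin A, averaged 0.938, 0.793 and 1.42 RPKM over 11 windows. Its log2 ratio to the intergenic level was 0.76 (SE 0.20, limma adjusted p = 0.00796), and without replicate 3 the adjusted p was 0.0661. With all valid windows as reference the ratio was 0.16 (adjusted p = 0.481). Of its 11 windows 7 were enriched, but only 2 in each replicate, and 0 were called for H3K27me3. The body exceeded its flanks, at 0.451 ± 0.0498 RPKM, in all 3 replicates, with a log2 ratio of 1.03 ± 0.27 (exact permutation p = 0.25). All 11 windows also overlap transcripts annotated on the opposite strand, a pseudogene (7 windows) and the antisense RNA Gm48444 (4 windows, mean 1.24 ± 0.395 RPKM). A histone mark has no strand, so the share of each cannot be told apart.

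Inha (ENSMUSG00000032968.4, chr1:75507077-75510366, plus strand), the alpha subunit that makes a dimer inhibin rather than activin, averaged 0.453, 0.925 and 0.226 RPKM over 3 windows. These values came from 10, 7 and 2 reads, 19 in all, for which the exact 95% Poisson interval is 11.4 to 29.7. The replicates lay on both sides of the intergenic level, with a log2 ratio of -0.22 (SE 0.40, limma adjusted p = 0.636). No window was enriched, and all 3 were called for H3K27me3. Such intervals cover counting error only, since PCR copies may be among the reads.

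Amh (ENSMUSG00000035262.5, chr10:80805243-80807648, plus strand), anti-Müllerian hormone, averaged 2.17, 0.991 and 1.02 RPKM over 2 windows, with replicate 1 apart from the others. The reads numbered 32, 5 and 6. Its log2 ratio to the intergenic level was 1.08 (SE 0.33, limma adjusted p = 0.0157), with adjusted p = 0.215 without replicate 1 and 0.0521 without replicate 3. The enriched window is the first, chr10:80804001-80806000, at 1.79 RPKM. It is shared with the end of Sf3a2, a splicing factor gene on the same strand that ends 0.319 kb upstream and averaged 1.76 ± 0.368 RPKM. The window that belongs to Amh alone was at 0.991 RPKM, and on that window the log2 ratio was 0.47 (adjusted p = 0.364). Against its flanks, at 1.18 ± 0.187 RPKM, the ratio was 0.15 ± 0.40 (exact permutation p = 1).

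Nppc and Npr2 act as a pair. Nppc encodes the precursor of C-type natriuretic peptide in mural granulosa cells, and Npr2 the guanylyl cyclase receptor on cumulus cells whose cyclic GMP keeps the oocyte from resuming meiosis. Nppc (ENSMUSG00000026241.5, chr1:86666291-86670571, minus strand) averaged 0.543, 0.396 and 0.226 RPKM over 3 windows, from 12, 3 and 2 reads. Its log2 ratio to the intergenic level was -0.49 (SE 0.36, limma adjusted p = 0.239), and with all valid windows as reference it was called below at -1.09 (adjusted p = 0.0290). Npr2 (ENSMUSG00000028469.15, chr4:43631935-43651244, plus strand) averaged 0.802, 0.577 and 0.492 RPKM over 11 windows, a log2 ratio of 0.11 (SE 0.22, limma adjusted p = 0.674). Its values straddled the intergenic level. The single enriched window was the last, at 1.03 RPKM, and was not above 1 in each replicate.

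Foxl2 (ENSMUSG00000050397.4, chr9:98955288-98958543, plus strand) averaged 0.770, 0.264 and 0.226 RPKM over 3 windows. Replicate 1 held 17 of its 21 reads and the other libraries 2 each. The log2 ratio to the intergenic level was -0.50 (SE 0.39, limma adjusted p = 0.271), and 0 windows were enriched. The exact 95% Poisson interval of the 21 reads is 13.0 to 32.1.

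The other marks were read from the deposited calls, 1 per window and with no replicates, which rest on H3K4me3 and H3K27me3 libraries published before from the same laboratory. Of the 267 windows, 166 (62.2%) were called for H3K27me3, against 25.9% of all windows of protein-coding genes. Fshr supplied 80 of these, Cyp19a1 38 and Lhcgr 25. The call was not confined to these gene bodies, as it ran on past both ends of Fshr and upstream of Lhcgr and Cyp19a1. Counted by gene, 8 of 10 had at least 1 such window (43.9% of all protein-coding genes) and 7 had the call over at least 50% of their windows (27.5% of all). Every window of Foxl2, Inha, Nppc and Npr2 was called, and 0 windows of Amh and Inhba. Kitl had the call in its first 3 windows alone.

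H3K4me3 was called in 71 windows (26.6%, against 26.2% of all windows of protein-coding genes). H3K4me3 and H3K27me3 together without H3K36me3 were called in 40 of the 267 windows (15.0%, against 8.77% of all windows of protein-coding genes). These included all 3 windows of Foxl2 and of Nppc, 2 of 3 of Inha and 9 of 11 of Npr2. Fshr, by contrast, had no H3K4me3 call in any of its 102 windows, the start included. In 4 of its windows H3K27me3 and H3K36me3 were called together. These are the 4 windows that passed 1 RPKM on the mean and not in each replicate. Of the 267 windows 33 carried none of the marks, 22 of them in Fshr.

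**Figure D3:**
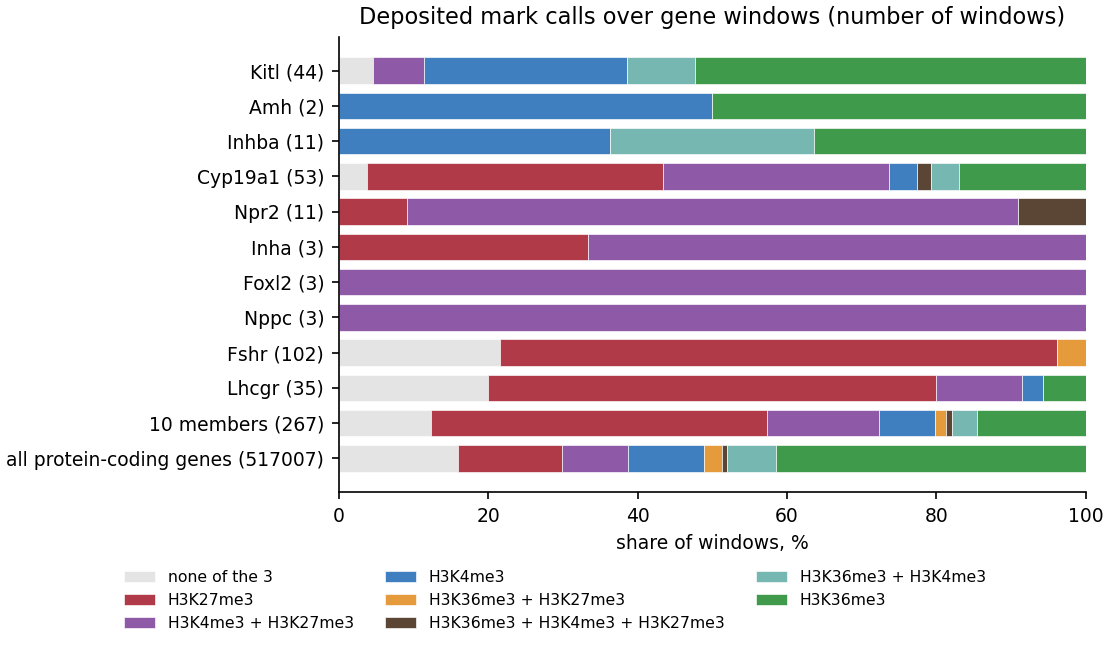
Share of windows (horizontal axis, %) with each deposited combination of marks for each gene, for all 10 genes and for all protein-coding genes, with the number of windows in parentheses. H3K36me3 without another mark fills 52.3% of Kitl and 41.4% of all windows of protein-coding genes, while H3K27me3 without another mark fills 74.5% of Fshr.

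Within the 10 genes, H3K36me3 was lower where H3K27me3 was called. The 166 windows with the call averaged 0.471, 0.404 and 0.312 RPKM in replicates 1 to 3, and the 101 without it 1.01, 1.08 and 1.17. The log2 ratio was -1.48 ± 0.40 (SD, n = 3, exact permutation p = 0.25), next to -1.51 ± 0.18 over all windows of protein-coding genes. The ratio varied by gene. In Cyp19a1 the log2 ratio was -1.88 ± 0.59, in Lhcgr -0.09 ± 0.38, and in Fshr the 80 windows with the call were the higher ones, at 0.398 ± 0.0414 RPKM against 0.188 ± 0.0813 for the other 22. In Kitl it was -3.08 ± 0.99, with the call in 3 windows. For H3K4me3 the ratio over the 10 genes was -0.30 ± 0.18 (exact permutation p = 0.25), and over all windows of protein-coding genes it was -0.85 ± 0.10. Of the 196 windows without this call, 102 are those of Fshr, at 0.353 RPKM. Within single genes the ratio was further from 0, at -1.73 ± 0.21 in Kitl, -1.60 ± 0.86 in Lhcgr, -0.73 ± 0.47 in Inhba and -0.54 ± 0.26 in Cyp19a1. For both marks, the ratios of single genes were taken with 0.1 RPKM added to each level. The ratios over the 10 genes and over all protein-coding genes were taken without it. In Lhcgr the 5 windows with H3K4me3 averaged 0.136, 0 and 0.068 RPKM, so its ratio depends on that addition.

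To set these genes beside others, the same test was read for lists of oocyte, somatic and ubiquitous genes. The shares over all protein-coding genes, to be held beside each list, were 54.8% above and 18.1% below. Of the 15 oocyte genes 14 were called above the intergenic level and 1 below, and the list had a median of 1.88 RPKM. Bmp15 (3.73 ± 1.03) and Nobox (2.93 ± 1.29), a growth factor and a transcription factor of the oocyte, were highest. Zar1 (0.224 ± 0.0416, from 8 reads), a maternal RNA-binding protein gene, was the gene below, with an adjusted p of 0.0888 without replicate 1 and of 0.0882 in edgeR, and Npm2 (1.20 ± 0.436), a maternal nucleoplasmin gene, was the next lowest. H3K27me3 was called in 0 windows of these 15 genes. Of 10 ubiquitous genes 8 were called above and 0 below by limma (0 at an unadjusted p under 0.05, and 0 by edgeR), with a median of 1.71 RPKM, from Polr2a (2.38 ± 0.494) and Ywhaz (2.35 ± 0.733) to Ppia (0.923 ± 0.348) and Gusb (0.379 ± 0.220). Gusb had a log2 ratio of -0.56 (SE 0.33).

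The 14 further granulosa genes resembled the 10 in their median, 0.561 RPKM, with 6 called above and 2 below. The highest were Nr5a2 (2.02 ± 0.204), an orphan nuclear receptor, and Serpine2 (1.93 ± 0.188), a protease inhibitor. The lowest were Nr0b1 (0.106 ± 0.183, from 7 reads), a nuclear receptor corepressor, and Inhbb (0.265 ± 0.148), the other inhibin beta subunit. At least 50% of the windows were called for H3K27me3 in 9 of these 14 genes. The 10 genes listed for the cumulus response at ovulation had the lowest median, 0.327 RPKM. Of these, limma called 0 above (0 at an unadjusted p under 0.05, and 0 by edgeR) and 4 below. They ran from Has2 (0.724 ± 0.0597), the hyaluronan synthase of the expanding cumulus, and Egfr (0.474 ± 0.0607) down to Ptx3 (0.268 ± 0.232) and Ereg (0.243 ± 0.152), and all 10 had at least 1 window called for H3K27me3.

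Genes of other ovarian cells were mixed. Of 7 theca and luteal genes 4 were called above and 1 below. Star (2.41 ± 0.0651), which carries cholesterol into mitochondria, and Hsd3b1 (1.87 ± 0.325), which has near-identical neighbours and is uncertain for that reason, were highest, and Gli1 (0.527 ± 0.247) and Insl3 (0.247 ± 0.275) lowest. Of 6 stromal genes 1 was called above and 1 below, from Dcn (0.912 ± 0.107) and Tcf21 (0.491 ± 0.153) to Lum (0.334 ± 0.192) and the collagen gene Col1a2 (0.207 ± 0.0928). Of 6 endothelial genes 4 were called above, led by the angiopoietin receptor gene Tek (2.27 ± 0.225) and the adhesion molecule gene Pecam1 (1.91 ± 0.306), and 2 below, Cdh5 (0.322 ± 0.116) and Emcn (0.257 ± 0.0812). Of 7 blood genes 1 was called above, Csf1r (1.14 ± 0.236), and 4 below. Spi1 followed at 0.611 ± 0.0716, and Cd3e (0.229 ± 0.200) and Ptprc (0.228 ± 0.0595) closed the list.

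Together these 6 somatic lists held 50 genes with a median of 0.416 RPKM, 16 called above and 14 below, or 32.0% and 28.0% where all protein-coding genes gave 54.8% and 18.1%. By list, the share above ran from 0% for the cumulus response to 66.7% for endothelium, with theca and luteal genes at 57.1%. Without replicate 3 the count below over the 50 genes was 5. In 33 of the 50 at least 50% of the windows were called for H3K27me3. The part that attached somatic cells may have in any of these levels was not tested.

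**Figure D4:**
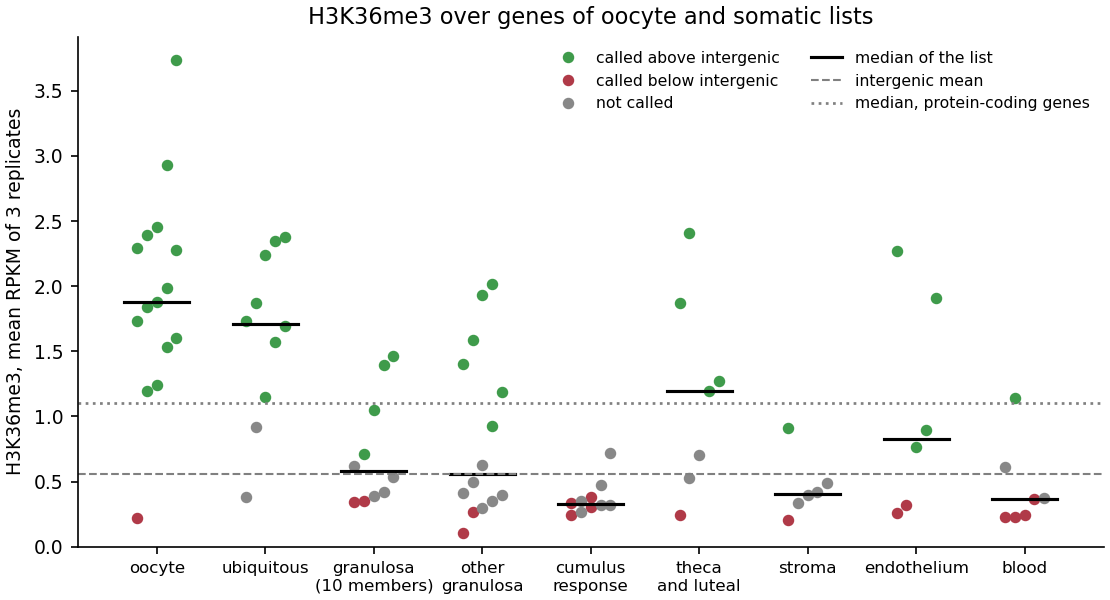
Mean RPKM of H3K36me3 (vertical axis, 3 replicates) for each gene of the lists, coloured by its call against the intergenic level; the black bar is the median of the list, the dashed line the intergenic mean and the dotted line the median of protein-coding genes. Oocyte genes have a median of 1.88 and cumulus response genes one of 0.327, and the 10 granulosa genes spread from 0.342 to 1.46.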

How the data were processed

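The authors mapped reads to GRCm38 with Bowtie2 2.2.9 and deposited signal per 2 kb window and replicate under the name RPKM, after removal of windows with extreme input coverage. A second deposited table names marks per window, 1 call each. All values were whole multiples of the value of 1 read (100% within 0.01 reads), so reads were recovered. Genes were averaged over every window they overlap (GENCODE M21, chromosomes 1 to 19 and X). The levels were tested with limma 3.58.1 against the intergenic mean of the same replicate on the log2 scale with a pseudocount of 0.1, which understates changes of low genes, and with edgeR 4.0.16 on recovered reads as an alternative. Called means an adjusted p under 0.05. Both fits were tested on simulated data in which most genes lay at the intergenic level, unlike in these data. That test therefore does not vouch for the calls given here. Of the genes called below, 264 had no reads at all. The members, lists and tests were chosen with earlier results of these data known. All 10 members were named, with the 2 highest and 2 lowest genes of each list and genes that share a window with a member and exceed 1 RPKM. Exact sign-flip tests over replicates were two-sided and unadjusted, as none could pass 0.05.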

Additional observations from a re-analysis of the deposited data

How the results depend on the processing

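No paired analysis was possible because all 3 samples belong to 1 group, so that no numbers are shared between groups. The references and flanks were nonetheless taken within the same replicate. Short genes rest on few reads, and the marks other than H3K36me3 have no replicates. Kitl was called above the intergenic level under all 11 alternatives, and edgeR on recovered reads called the 6 members that limma called. With all valid windows as reference, 1 member was called above and 4 below, as were 10 and 29 of the other somatic genes, 1 ubiquitous gene below and 6625 protein-coding genes below, by a reference that is higher by construction. With the flanks of 20 kb as reference, 2 members were called above, and for the other somatic genes the counts were 6 above and 6 below, for the oocyte genes 5 and 0, for the ubiquitous genes 5 and 1, and for all protein-coding genes 6446 and 2438. With windows that overlap no other gene, 2 members were called above, since Inhba has no such window and Amh lost its call. The filter on 3 windows and 10 reads left 0 oocyte genes called below, since it removes Zar1, and edgeR left 0 as well.

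Leaving out a replicate gave 2 to 3 members above and 1 to 2 below. The same gave 10707 to 11541 and 2234 to 3871 protein-coding genes, 15 to 16 and 5 to 15 other somatic genes and, for oocyte genes below, 0 to 1. The number of enriched windows over the members, 54, became 34 at a threshold of 1.5, 19 at a threshold of 2 and 29 where each replicate had to pass 1. Directions turned for 5 members, Fshr and Cyp19a1 among them although both were called. Against the flanks the log2 ratio of Fshr was 0.23, of Foxl2 0.20, of Cyp19a1 -0.63 and of Npr2 -0.062, and against all valid windows that of Cyp19a1 was -0.30 and of Npr2 -0.49. Npr2 was at -0.059 over windows of no other gene. Leaving out a replicate moved Npr2 between -0.041 and 0.21 and Inha between -0.64 and 0.16. With flanks of 10 kb the log2 ratio of body over flanks was 0.84 for Inha, where flanks of 20 kb gave -0.62. For Npr2 it was 0.26, where flanks of 20 kb gave -0.062. Leaving out a replicate, an alternative chosen after seeing the data for this ratio, gave -0.032 to 0.56 for Fshr, -0.084 to 0.28 for Amh and -0.22 to 0.074 for Npr2. The cause was not tested where none is given.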
